A study of Mus musculus with 6 samples.

Results

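Fgf21, Gdf15, Stc1, Stc2 and Adm2 encode hormones and other secreted proteins that are reported to be induced by the integrated stress response, the program that cells start when their mitochondria or their protein synthesis fail. They were taken as the rows carrying these 5 symbols among the 24848 genes measured, and all 5 were present. The measurements came from RNA-seq of brains of mouse embryos at E14.5, with 3 brains labelled E4f1 KO and 3 labelled WT. The E4F1 protein is a transcription factor with zinc fingers, and the study asked how its loss touches pyruvate use and tRNA modification by Elongator as the brain develops. The labels give a single animal number for each library and both groups the same tissue and age. Which part of E4f1 was deleted, in which cells, and which embryos were littermates is not stated in the labels, so p-values measure the spread between these brains. In libraries from whole tissue, fewer cells of a type and less RNA per cell cannot be told apart.

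Failing mitochondria signal to kinases that phosphorylate the translation factor eIF2 alpha, which lowers protein synthesis in general while favouring translation of the transcription factor ATF4. ATF4 and its partners then raise genes for amino acid supply and protein folding, and in muscle and liver also secreted factors such as FGF21 and GDF15, which serve as blood markers of mitochondrial disease. FGF21 and GDF15 act on distant tissues and change feeding and fuel use, ADM2 (intermedin) is a vasoactive peptide, and the stanniocalcins STC1 and STC2 bind and inhibit the PAPP-A proteases that free insulin-like growth factors.

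Among the 5 genes, Stc2 rose in KO brains, 4.48-fold. Gdf15 and Adm2 held 9 to 28 read pairs per KO library and 0 to 3 per WT library, and missed the threshold of the edgeR test. Both entered that test through their counts in KO alone, so their direction adds nothing to it. Stc1, the close relative of Stc2, was measured as deeply as Stc2 and was not called. Fgf21 was too low in every library to judge.

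The libraries held between 50186590 and 69068011 expected counts (read pairs assigned to genes) in KO and between 42113465 and 74064707 in WT. With edgeR, 15848 genes were tested and 159 were called changed at an adjusted p below 0.05. Of these, 81 rose (0.511% of the genes tested) and 78 fell (0.492%), while scaling by library totals alone gave 123 and 63. E4f1 itself was lower in every KO library, at 7.01 ± 0.103 CPM (counts brought to a common library total) in KO and 21.3 ± 0.485 CPM in WT (SD, n = 3 each, adjusted p = 0.00142), so its transcript was still detected in KO. Neural genes were abundant as the label brain asks, with the neuronal tubulin Tubb3 between 1802 and 2493 TPM (a level scaled to transcript length and to a common total) in KO and between 2873 and 3121 TPM in WT. The WT 3 library stood apart from the other WT libraries in the midbrain genes En1, En2 and Pax5, whose mean log2 CPM was -3.05, -1.31 and -1.97 in KO 1 to KO 3 and 4.12, 3.18 and -0.19 in WT 1 to WT 3, and results are therefore also given without it.

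The promoters are shown because genes switched on by ATF4 often carry a composite site for ATF4 and a C/EBP partner, and the members differed in whether their promoter window holds one. The RefSeq promoter table (GRCm38.p6), which spans 250 bases before and 50 bases after each start, matched 4 of the 5 members by symbol, all but Stc1. The letters TGATGNAA were searched on both strands, and a match is in capitals.
Stc2, chr11:31370012-31370311, minus strand: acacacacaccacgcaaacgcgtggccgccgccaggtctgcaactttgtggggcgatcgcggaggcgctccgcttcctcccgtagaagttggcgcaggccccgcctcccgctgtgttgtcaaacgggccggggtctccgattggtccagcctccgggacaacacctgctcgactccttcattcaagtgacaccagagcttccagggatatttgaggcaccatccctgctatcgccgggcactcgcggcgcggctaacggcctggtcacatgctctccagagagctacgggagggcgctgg
Gdf15 (first of 2 starts), chr8:70632407-70632706, minus strand: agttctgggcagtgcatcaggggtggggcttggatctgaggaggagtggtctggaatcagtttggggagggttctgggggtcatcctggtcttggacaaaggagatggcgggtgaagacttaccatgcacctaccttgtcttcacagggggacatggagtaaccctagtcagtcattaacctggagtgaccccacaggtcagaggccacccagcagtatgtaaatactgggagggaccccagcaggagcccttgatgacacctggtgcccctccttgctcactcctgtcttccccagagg
Adm2, chr15:89322470-89322769, plus strand: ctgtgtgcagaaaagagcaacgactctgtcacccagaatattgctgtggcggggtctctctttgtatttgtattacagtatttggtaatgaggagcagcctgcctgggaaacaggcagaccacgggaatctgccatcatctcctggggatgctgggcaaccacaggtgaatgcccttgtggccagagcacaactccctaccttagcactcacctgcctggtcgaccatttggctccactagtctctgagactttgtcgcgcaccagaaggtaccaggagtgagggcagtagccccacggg
Fgf21, chr7:45615441-45615740, minus strand: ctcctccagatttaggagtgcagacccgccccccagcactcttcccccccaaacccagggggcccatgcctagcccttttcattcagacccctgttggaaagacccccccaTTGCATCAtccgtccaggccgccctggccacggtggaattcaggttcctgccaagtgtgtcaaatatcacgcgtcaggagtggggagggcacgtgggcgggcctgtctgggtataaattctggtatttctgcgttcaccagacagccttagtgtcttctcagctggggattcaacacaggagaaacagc
The Fgf21 window held 1 match, TTGCATCA on the opposite strand, between 139 and 132 bases upstream of the start. The Stc2 and Adm2 windows and both Gdf15 windows held none, and 3.97% of the 32851 promoters listed held at least 1. Among 5 textbook genes of the response that were searched beside them, Asns, Trib3 and Chac1, which encode an asparagine synthetase, a pseudokinase and a glutathione-degrading enzyme, held a match, and Sesn2 and Ddit3 held none. The cyclic AMP response core TGACGT was in 7.51% of promoters and in no member's window. The hypoxia core ACGTG was in 19.6% of promoters, in the window of Fgf21 and in that of the second Gdf15 start. These are matches of letters in a short window, and binding was not measured.

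Stc2 (chromosome 11, 31359441 to 31370061, minus strand, GRCm38) encodes a secreted glycoprotein whose known action is to bind PAPP-A covalently and stop it from cleaving IGF-binding proteins. Its expected counts were 585, 403 and 418 in KO 1 to KO 3 and 109, 87 and 111 in WT 1 to WT 3. After scaling for depth by TMM, these were 8.18, 7.06 and 8.19 CPM in KO and 1.46, 2.12 and 1.67 CPM in WT. All KO libraries lay far above all WT libraries, and even the lowest KO value, in KO 2, was well above the highest WT value, in WT 2. Every KO library was above every WT library for 14.6% of all tested genes. The mean was 7.81 ± 0.650 CPM in KO and 1.75 ± 0.334 CPM in WT (SD, n = 3 each). The log2 fold change of KO over WT was 2.16 ± 0.19 (SE), a 4.48-fold rise with a 95% interval of 3.27 to 6.14, at an adjusted p of 0.00639 by edgeR's quasi-likelihood test. Stc2 ranked 40th by p among the 15848 genes and 12th by fold among the 81 that rose. DESeq2 gave an adjusted p of 1.41e-25. The size of the difference was steady while its call was not: with 1 library left out, the log2 fold change ran between 2.05 and 2.32, and the call was kept in 4 of 6 fits and lost without KO 1 (adjusted p = 0.0687) and without WT 3 (adjusted p = 0.0550). With the midbrain score as a covariate the log2 fold change was 2.09 ± 0.42 and the adjusted p by edgeR 0.797. Every KO library had a lower score than every WT library, and this fit called 0 genes among all tested. It therefore cannot separate the score from the genotype. WT 3, whose midbrain score lay nearest to those of the KO libraries, had Stc2 at 1.67 CPM, between WT 1 and WT 2. This is 1 library, and the part of the score in the Stc2 values was not tested.

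**Figure D1:**
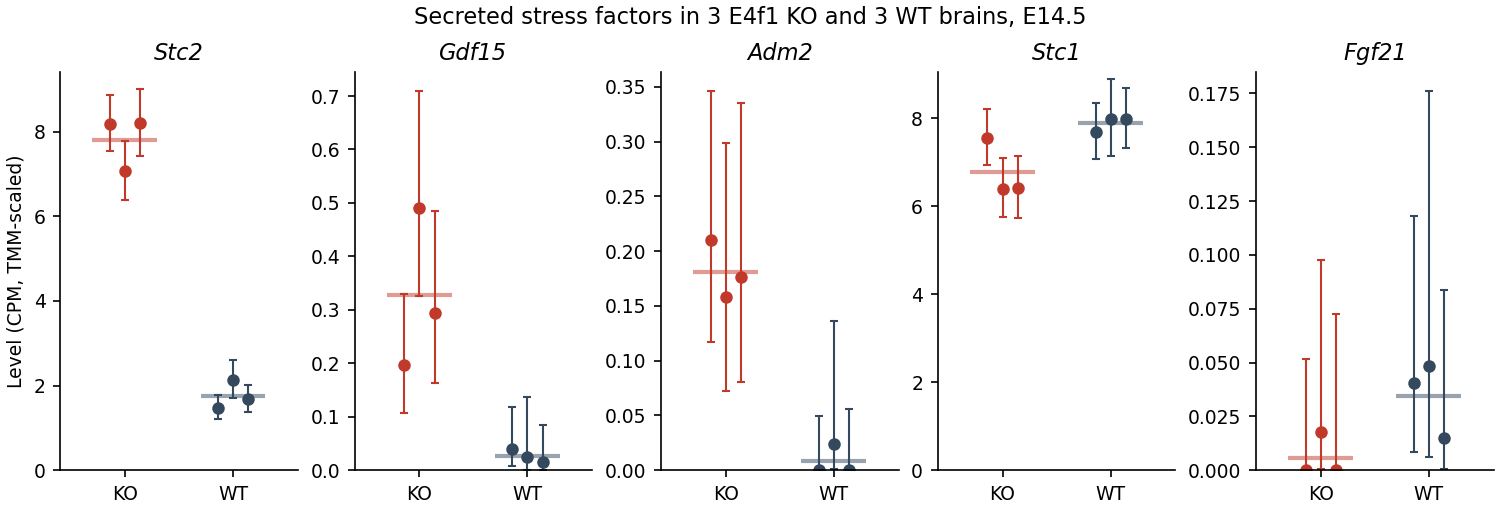
Level of each secreted factor in each library in TMM-scaled CPM, each panel with its own axis from 0, with KO left and WT right. Points are libraries 1 to 3, whiskers are exact 95% Poisson intervals (counting error only) and horizontal bars are group means; Stc2 lies between 7.06 and 8.19 CPM in KO and between 1.46 and 2.12 CPM in WT, whereas Fgf21 reaches no more than 0.0486 CPM anywhere.

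Stc1 (chromosome 14, 69029289 to 69041401, plus strand) encodes the other mammalian stanniocalcin, which in cultured cells is known for effects on calcium and phosphate handling and is induced by hypoxia. Its expected counts were 540, 365 and 327 in KO and 573, 328 and 531 in WT, which came to 7.55, 6.39 and 6.41 CPM in KO and 7.69, 7.98 and 7.99 CPM in WT. Every KO library lay below every WT library, but the counting intervals of KO 1 and WT 1 overlapped. Over all tested genes, every KO library was below every WT library for 13.0%. The mean was 6.78 ± 0.666 CPM in KO and 7.89 ± 0.167 CPM in WT (SD, n = 3 each), a log2 fold change of -0.22 ± 0.12 (SE) with an adjusted p of 0.370. The 95% interval of the fold, 0.702 to 1.06, holds a decrease of moderate size as well as no change, and no alternative setting called the gene. An antisense gene, Gm41192, shares 229 exonic bases with Stc1 on the opposite strand. The library kit marks strand, but no source used here gives the strand setting of the counting, and whether Gm41192 adds to the Stc1 count was not tested.

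The balance between the stanniocalcins differed between these KO and WT brains. It restates the values of the genes above, of which only Stc2 was called. Scaled to transcript length, Stc2 stood at 13.03, 11.17 and 12.70 TPM in KO and at 2.34, 3.39 and 2.66 TPM in WT. Stc1 stood at 5.38, 4.51 and 4.43 TPM in KO and at 5.50, 5.72 and 5.69 TPM in WT. Stc2 was the more abundant stanniocalcin transcript in each KO brain and Stc1 in each WT brain. The ratio of Stc2 to Stc1 was 2.42, 2.48 and 2.87 in KO and 0.425, 0.593 and 0.467 in WT. On the log2 scale the ratio averaged 1.37 ± 0.13 in KO and -1.03 ± 0.25 in WT (SD, n = 3 each), a difference of 2.40 or 5.26-fold, with an exact two-sided permutation p of 0.10, the smallest that 3 against 3 allows.

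**Figure D2:**
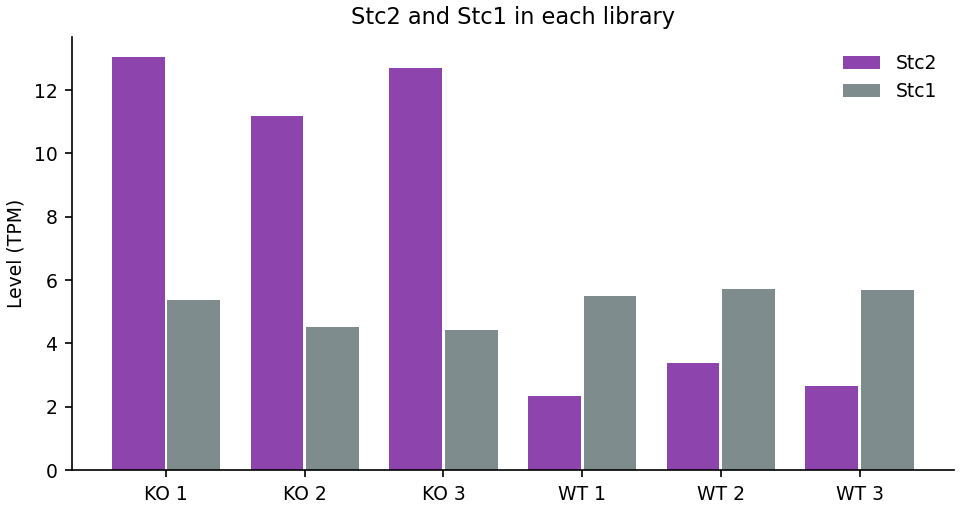
TPM of Stc2 and Stc1 (bars from 0) in each of the 3 KO and 3 WT libraries. The Stc2 bar is taller in each KO library, between 11.17 and 13.03 TPM, and the Stc1 bar in each WT library, between 5.50 and 5.72 TPM.

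Gdf15 (chromosome 8, 70629393 to 70632470, minus strand) encodes a distant member of the TGF-beta family that acts through the receptor GFRAL on neurons of the hindbrain and reduces appetite. Its expected counts were 14, 28 and 15 in KO and 3, 1 and 1 in WT. These came to 0.196, 0.491 and 0.294 CPM in KO and 0.0403, 0.0243 and 0.0150 CPM in WT. KO 2 was highest and the groups did not overlap, with every WT library at or under the floor of 3 counts used here as the limit of detection. Every KO library lay above every WT library for 14.6% of all genes tested, so a lack of overlap alone is common in these data. The summed counts of 57 in KO and 5 in WT gave a ratio, after allowing for depth, of 11.6 (exact 95% interval 4.67 to 36.9, counting error only). The log2 fold change was 3.48 ± 0.58 (SE), with a 95% interval of 2.07 to 4.88 and an adjusted p of 0.0592, so Gdf15 was not called by edgeR. DESeq2 called it (log2 fold change 3.59, adjusted p = 0.00604). DESeq2 thus called 2 members, Stc2 and Gdf15, and it called 4.97% of all genes it tested as higher in KO and 4.18% as lower. With 1 library left out the adjusted p by edgeR was between 0.103 and 0.209.

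Adm2 (chromosome 15, 89322720 to 89324731, plus strand) encodes a peptide of the calcitonin family that widens blood vessels. Its expected counts were 15, 9 and 9 in KO and 0, 1 and 0 in WT, or 0.210, 0.158 and 0.176 CPM in KO and 0, 0.0243 and 0 CPM in WT. The KO libraries were close to each other, and a single read pair was assigned to the gene in all WT libraries together. The summed counts of 33 in KO and 1 in WT gave a ratio of 33.5 (exact 95% interval 5.60 to 1360.9, counting error only), an interval so wide that the size of the difference is hardly known. The adjusted p was 0.0649 by edgeR, so Adm2 was not called, and its fitted log2 fold change of 4.58 ± 0.82 (SE) depends on how counts of 0 are treated. Leaving out 1 library moved this value between 3.98 without WT 1 and 6.56 without WT 2 over the same genes, with adjusted p between 0.0906 and 0.295. DESeq2 gave no adjusted p. Gdf15 and Adm2 passed the filter on low counts through the KO libraries alone, Adm2 barely, since its lowest KO library had 0.160 CPM before TMM scaling, at the threshold of 0.160 CPM. A gene that enters a test in this way had to be higher in KO, and the direction of these genes therefore adds nothing to the calls.

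Fgf21 (chromosome 7, 45613890 to 45615490, minus strand) encodes a hormone best known from liver, which signals through FGF receptors with the coreceptor beta-Klotho. Its expected counts were 0, 1 and 0 in KO and 3, 2 and 1 in WT, which is 0, 0.0175 and 0 CPM in KO and 0.0403, 0.0486 and 0.0150 CPM in WT. No library held more than the 3 counts that set the floor, and the groups overlapped, KO 2 lying above WT 3. A floor of 3 counts corresponds to between 0.0434 and 0.0598 CPM in KO and between 0.0405 and 0.0712 CPM in WT, so levels under these could not be seen. Fgf21 was left out of the test by the filter on low counts and no fold is given. It was thus not detectable at this depth as a higher transcript in KO, and a change below these levels was not measurable.

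The call of Stc2 alone makes 1 of the 4 tested members, beside 0.511% of all tested genes that rose. A separate exact two-sided permutation test of log2(CPM + 0.1) over the libraries gave p = 0.10 for Gdf15, Stc1, Stc2 and Adm2, the smallest that 3 against 3 allows, and p = 0.20 for Fgf21. Any gene whose groups do not overlap reaches this p of 0.10. Over all tested genes, every KO library lay above every WT library for 14.6% and below for 13.0%. Ordered by mean TPM in KO, the members ran from Stc2 at 12.3 ± 0.992 TPM through Stc1 at 4.77 ± 0.527, Gdf15 at 0.697 ± 0.322 and Adm2 at 0.417 ± 0.0666 to Fgf21 at 0.02 ± 0.0346 TPM (SD, n = 3). In WT, Stc1 came first at 5.64 ± 0.119 TPM and Stc2 next at 2.80 ± 0.538 TPM. The other three WT levels, 0.12 ± 0.0624 TPM for Fgf21, 0.0567 ± 0.0306 TPM for Gdf15 and 0.02 ± 0.0346 TPM for Adm2, had overlapping ranges and no order (SD, n = 3). In KO the neighbours Gdf15 and Adm2 overlapped likewise. Even in KO brains, then, Gdf15 and Adm2 stood at under 1 TPM on average, far below Stc2.

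**Figure D3:**
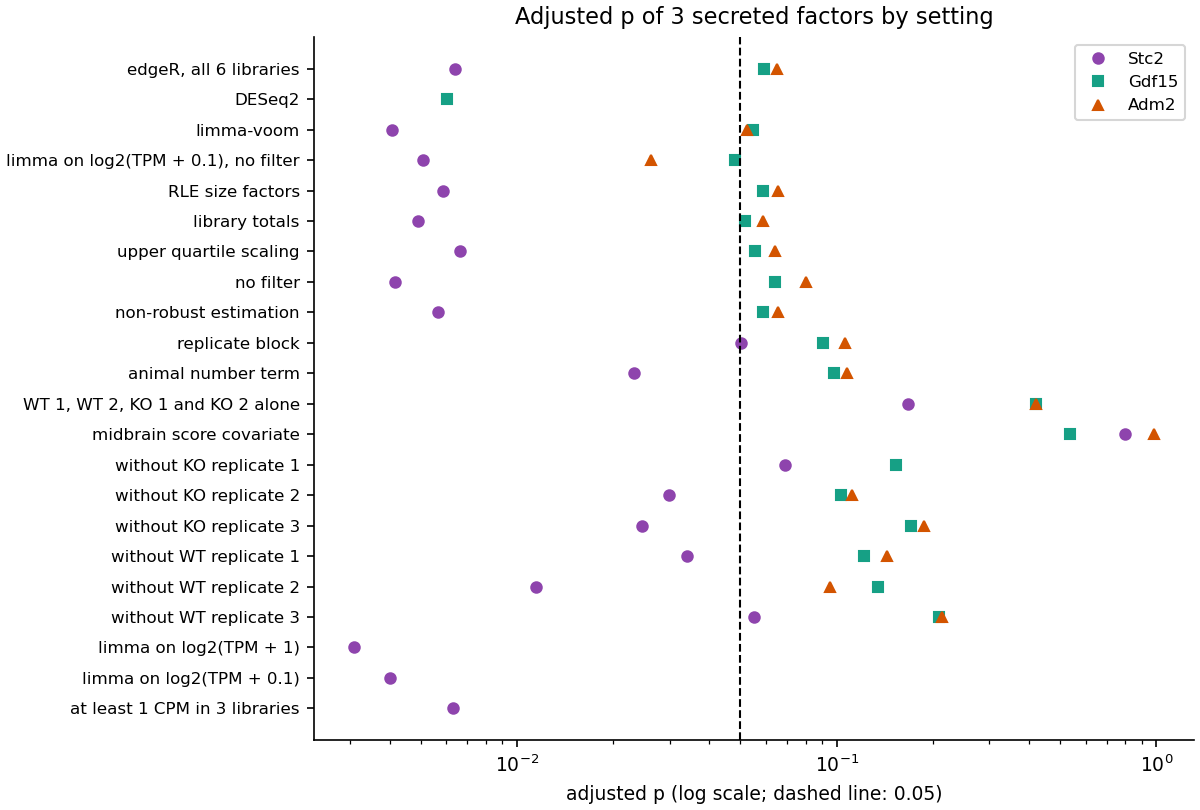
Adjusted p (log axis, dashed line at 0.05) of Stc2, Gdf15 and Adm2 under each setting of the test; settings that gave no p for a gene have no point, and the point of Stc2 under DESeq2 (1.41e-25) is off the axis. Stc2 lies left of the line under most settings but not without KO 1 or WT 3, with the replicate block, with 4 libraries or with the midbrain score, whereas Gdf15 and Adm2 lie right of it under every other setting than DESeq2 (Gdf15) and limma on unfiltered TPM (both).

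The genes whose profile over the 6 libraries was most like that of each member were found by the root mean square (RMS) difference of centred log2 CPM among 13308 expressed genes; the likeness is a description, since the groups dominate each profile. For Stc2 they were Asns (RMS difference 0.134 on the log2 scale), Sesn2 (0.159), which encodes a stress-induced inhibitor of mTORC1, and the transcription factor gene Cebpb (0.214). Asns reached 115.0 ± 5.54 CPM in KO and 30.8 ± 6.35 CPM in WT, and Sesn2 33.4 ± 2.64 CPM in KO and 7.05 ± 0.0745 CPM in WT (SD, n = 3 each). For Gdf15 they were the heme oxygenase gene Hmox1 (0.365), Sesn2 (0.464) and the translation inhibitor gene Eif4ebp1 (0.471). For Adm2 they were Ccl6 (0.242), a chemokine gene of myeloid cells, Sesn2 (0.285) and Asns (0.295). All of these but Ccl6 and Hmox1 belong to lists of stress response genes described further on, and the distances of Gdf15 and Adm2 are blunted by the prior count of 2 that their low counts required. For Stc1 the nearest were Bbs5 (0.042), Rsrp1 (0.045) and Ccdc28a (0.047), none of which was called.

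Of the receptors, those for FGFs and for ADM2 were measured in the brains, whereas the receptor of GDF15 was not detected and the coreceptor of FGF21 was too low to test. By edgeR and by DESeq2, none of the 10 tested receptor and coreceptor genes was called. Their median log2 fold change was 0.22, against 0.00 over all tested genes, and 4 were higher at an unadjusted p below 0.05, which 10.3% of all tested genes were (9.31% were lower). On the side of FGF21, Fgfr1, Fgfr2 and Fgfr3 were well expressed, Fgfr1 at 197.1 ± 25.4 CPM in KO and 158.5 ± 15 CPM in WT (SD, n = 3 each), with log2 fold changes of 0.31 ± 0.12, 0.39 ± 0.14 and 0.03 ± 0.28 (SE). Fgfr4, at 1.94 ± 0.325 CPM in KO and 1.19 ± 0.253 CPM in WT, had 0.71 ± 0.25. The coreceptor that FGF21 requires, Klb, held only 24 counts in KO and 25 in WT over all libraries and was not tested, and its relative Kl, which serves FGF23 and marks the choroid plexus, had a log2 fold change of -0.45 ± 0.23. On the side of GDF15, Gfral had 0 counts in all libraries, which allows up to 0.0598 CPM in KO and 0.0712 CPM in WT in the shallowest library. Its signalling partner Ret stood at 8.36 ± 4.67 CPM in KO and 12.5 ± 4.04 CPM in WT, with a log2 fold change of -0.57 ± 0.45. On the side of ADM2, Calcrl encodes the receptor and the Ramp genes its accessory proteins; their log2 fold changes were 0.40 ± 0.18 for Calcrl, -0.43 ± 0.62 for Ramp1, 0.53 ± 0.20 for Ramp2 and 0.13 ± 0.35 for Ramp3.

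The PAPP-A proteases on which the stanniocalcins act, and the binding proteins and growth factors downstream of them, showed no call by edgeR among 15 tested genes of this axis and of the proteases that process such secreted factors (median log2 fold change 0.14). DESeq2 called 1 of the 15, the proprotein convertase gene Pcsk7, as lower, at 30.0 ± 0.771 CPM in KO and 34.8 ± 1.18 CPM in WT (SD, n = 3 each). Among all genes it tested, DESeq2 called 4.18% as lower. Pappa was at 7.81 ± 0.237 CPM in KO and 7.91 ± 1.14 CPM in WT (SD, n = 3 each), with a log2 fold change of -0.02 ± 0.14 (SE) and an adjusted p of 0.949. Pappa2 was at 35 ± 6.29 CPM in KO and 22.5 ± 6.98 CPM in WT, a log2 fold change of 0.64 ± 0.25 at an adjusted p of 0.233. Transcripts of both known targets of STC2 were thus present in the same brains. Igfbp4, whose product is a known substrate of PAPP-A, had 0.31 ± 0.27, and Igf1 and Igf2 had 0.38 ± 0.39 and 0.34 ± 0.46, all on the log2 scale.

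No relative of the members was called as changed by edgeR, among 9 tested genes of the same families with a median log2 fold change of 0.18. Fgf15, the mouse counterpart of human FGF19 and like Fgf21 an endocrine FGF, was at 25.1 ± 4.01 CPM in KO and 15.1 ± 6.38 CPM in WT (adjusted p = 0.271; SD, n = 3 each). Adm, the closest relative of Adm2 in the list, was at 0.512 ± 0.262 CPM in KO and 0.932 ± 0.147 CPM in WT (adjusted p = 0.289). Gdf11, a TGF-beta family gene like Gdf15, was at 36.8 ± 4.0 CPM in KO and 49.7 ± 6.50 CPM in WT, with an adjusted p of 0.148 by edgeR. It was the 1 gene of the list that DESeq2 called, as lower, beside 4.18% of all genes DESeq2 tested. A further 7 tested genes for secreted proteins of stress in the endoplasmic reticulum or mitochondria, such as Manf and Creld2, held no call by edgeR or DESeq2 (median log2 fold change 0.11). At an unadjusted p below 0.05 by edgeR 1 was higher, Cdnf (log2 fold change 0.96 ± 0.27, SE), beside 10.3% of all tested genes.

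The intracellular arm of the same response is given beside the secreted factors. Of the genes for the kinases of eIF2 alpha, for subunits of its phosphatase and for the relay from mitochondria, 0 of 8 tested were called by edgeR. DESeq2 called 3 as higher, the kinase gene Eif2ak4 and the phosphatase subunit genes Ppp1r15a and Ppp1r15b. At an unadjusted p below 0.05, 3 were higher and 1, Eif2ak1, was lower (median log2 fold change 0.21), beside 10.3% higher and 9.31% lower over all tested genes. Eif2ak4, which encodes the amino acid sensor GCN2, had 0.33 ± 0.07, and Dele1, which encodes the messenger from mitochondria and is listed under an older symbol, had -0.03 ± 0.07. Of 11 tested stress transcription factor genes 4 rose and none fell by edgeR, with a median log2 fold change of 0.63, while DESeq2 called 8 and the 4 libraries KO 1, KO 2, WT 1 and WT 2 alone gave 0. Atf5, a mediator of the mitochondrial stress response, had 2.16 ± 0.11, Cebpb 1.95 ± 0.29, Atf3 1.92 ± 0.19 and Ddit3, which encodes CHOP, 1.22 ± 0.11 (SE, log2 scale). Atf4 itself, regulated mostly at translation, was at 161.6 ± 7.78 CPM in KO and 108.6 ± 12.6 CPM in WT with an adjusted p of 0.0588. Of 19 tested intracellular targets 12 rose, none fell and all 19 had positive values, with a median log2 fold change of 1.13; DESeq2 called 16, and the same 4 libraries alone gave 0. Those with the largest changes were Trib3 (4.13 ± 0.38), Chac1 (2.99 ± 0.21), Eif4ebp1 (2.51 ± 0.15) and Sesn2 (2.25 ± 0.09). Beside these counts, edgeR called 0.511% of all 15848 tested genes as higher, DESeq2 called 4.97% of those it tested, and 7909 had positive values by edgeR. With 1 library left out, between 9 and 11 of the 19 targets were called, and of the 11 factors 1 without KO 1, 1 without WT 3, 2 without KO 2 and 3 without each of the others. With the midbrain score as a covariate neither list held a call, the medians being 0.63 for the factors and 1.44 for the targets. That fit and the fit of the 4 libraries called 0 genes among all tested, so the lack of calls is not particular to these lists. Stc2, at 2.16 ± 0.19, lay inside the range of these intracellular genes, whereas the intervals of Gdf15 and Adm2 were wider than that of any gene in these lists.

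**Figure D4:**
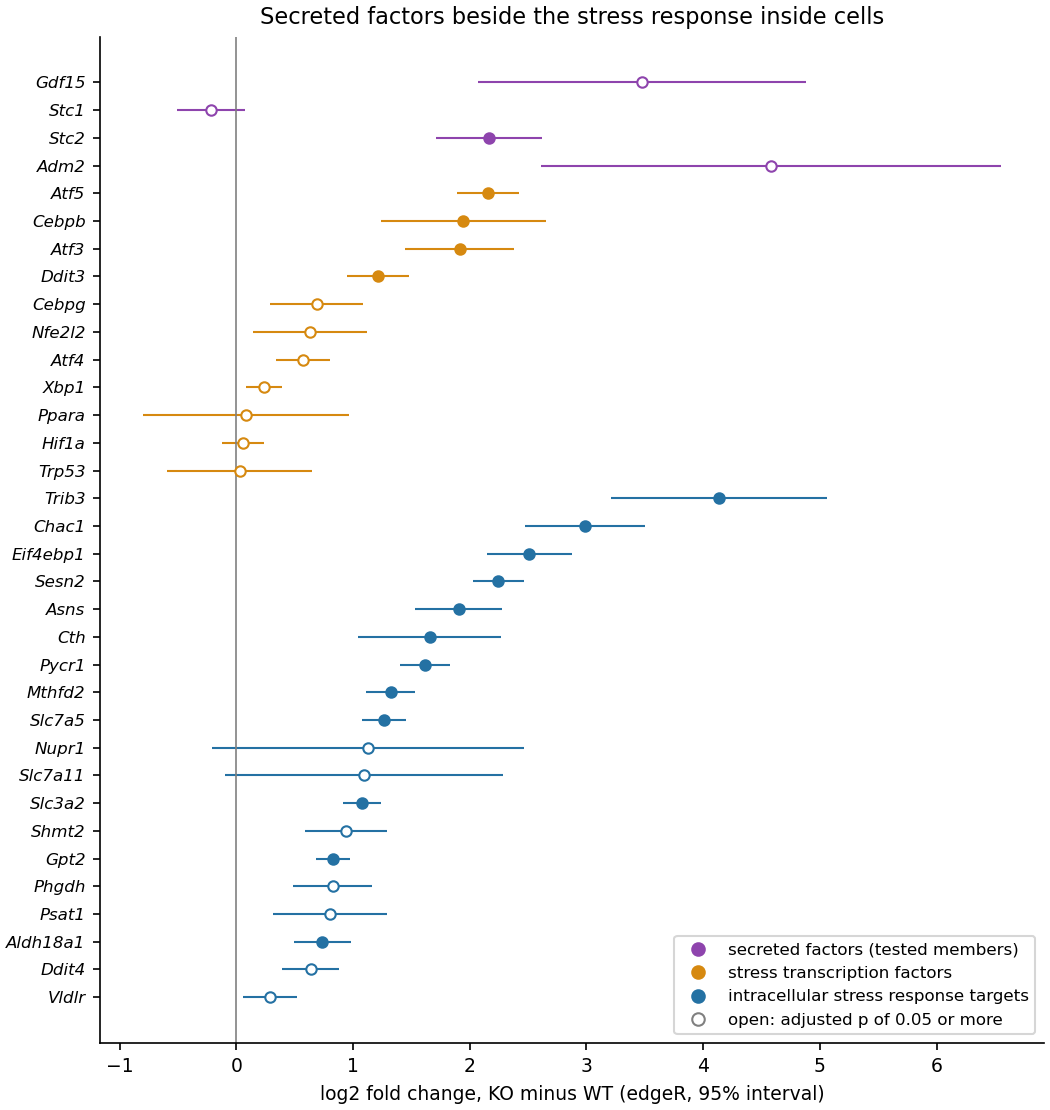
Log2 fold change of KO over WT with 95% intervals for the 4 tested secreted factors, the stress transcription factors and the intracellular targets; filled points have an adjusted p below 0.05. Stc2 (2.16) sits among the called targets with a narrow interval, Gdf15 and Adm2 have high values with wide intervals, and Stc1 lies at -0.22 with an interval that spans 0.

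Stc1, Gdf15 and Fgf21 are also known to answer to other signals, so genes of those signals were counted. Of 11 tested hypoxia genes 1 rose by edgeR, Vegfa, and the median was -0.06. Vegfa stood at 151.1 ± 24.4 CPM in KO and 79.9 ± 3.14 CPM in WT (SD, n = 3 each). Its log2 fold change was 0.92 ± 0.12 (SE), with an adjusted p of 0.0350. DESeq2 called 2 as higher, Vegfa and Slc2a1. Over all tested genes, 0.511% rose by edgeR, and DESeq2 called 4.97% of those it tested as higher. Vegfa, also a known ATF4 target, kept its call with KO 3 left out and lost it with any other library left out. Of 10 tested p53 targets, which bear on Gdf15, none was called by edgeR, and the median was 0.28. At an unadjusted p below 0.05, 3 were higher, beside 10.3% of all tested genes. In each of the 3 every KO library lay above every WT library, as in 14.6% of all tested genes. The 3 were Eda2r (log2 fold change 1.45 ± 0.33, SE), Ccng1 (0.67 ± 0.14) and Bbc3 (0.51 ± 0.19), and DESeq2 called Eda2r and Ccng1. Cdkn1a, which encodes the cell cycle inhibitor p21, was at 26.7 ± 2.55 CPM in KO and 21.4 ± 6.06 CPM in WT (adjusted p = 0.419). Of 8 tested targets of PPAR alpha, the factor that drives Fgf21 in fasted liver, none was called by edgeR or DESeq2, none passed an unadjusted p below 0.05, and the median was 0.20.

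**Figure D5:**
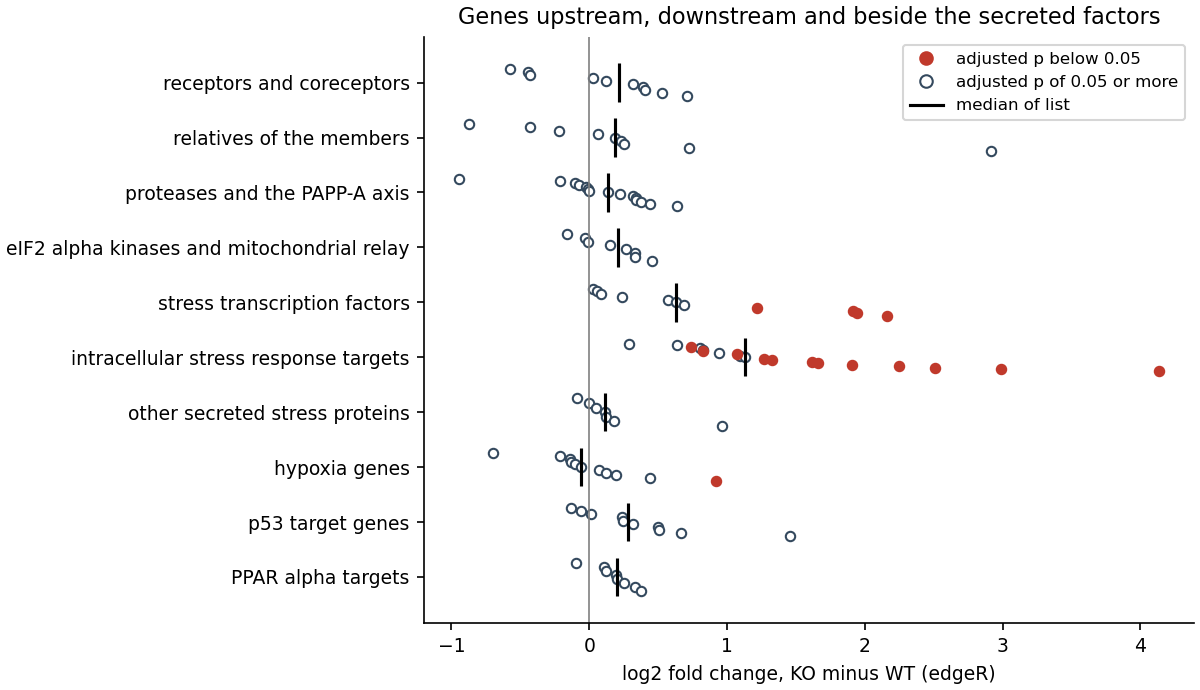
Log2 fold change of KO over WT of each tested gene (points, spread vertically within a list for legibility) in 10 lists around the secreted factors, with the median of each list as a bar; red points have an adjusted p below 0.05. Called genes sit in 3 lists, 4 among stress transcription factors, 12 among intracellular targets and 1 (Vegfa) among hypoxia genes.

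Markers of other cell types moved with the groups in part, and their part in the values of the members was not tested. The summed TPM of 8 microglia and macrophage genes was between 67.6 and 98.7 in KO and between 42.7 and 61.1 in WT. All 8 had positive values and 2 rose by edgeR (4 by DESeq2), Clec7a at 3.04 ± 0.457 CPM in KO and 0.365 ± 0.122 CPM in WT (adjusted p = 0.0129; SD, n = 3 each) and Cx3cr1 at 23.8 ± 2.89 CPM in KO and 11.7 ± 1.67 CPM in WT (adjusted p = 0.0395). Over all 15848 tested genes, 7909 had positive values and 0.511% rose by edgeR. DESeq2 called 4.97% of the genes it tested as higher and 4.18% as lower. Without KO 1, KO 2 or WT 3 none of the 8 microglia and macrophage genes was called, and without each of the other libraries 1 was. The sum of 7 endothelial and pericyte genes was between 317.1 and 431.2 TPM in KO and between 251.6 and 306.5 TPM in WT, with none called by edgeR and 3 higher by DESeq2. The sum of 8 neural genes was between 3183 and 3801 TPM in KO and between 4582 and 4684 TPM in WT, with none called by edgeR and 3 lower by DESeq2. Other sums overlapped between the groups: 7 meningeal genes between 247.9 and 2484 TPM in KO and between 311.6 and 1305 TPM in WT, 6 choroid plexus genes between 419.8 and 911.4 TPM in KO and between 802.7 and 987.0 TPM in WT, and 8 erythroid genes between 3886 and 5573 TPM in KO and between 1771 and 4822 TPM in WT. The 3 midbrain genes summed to between 0.380 and 1.6 TPM in KO and between 3.45 and 70.3 TPM in WT. Their median log2 fold change was -5.21, with none called by edgeR and all 3 lower by DESeq2. DESeq2 also called 2 erythroid genes as higher, and no meningeal or choroid plexus gene. Liver is the best known source of FGF21 in the adult, and the sum of 7 liver and yolk sac genes, nearly all from Ttr of the choroid plexus list, was between 391.3 and 863.8 TPM in KO and between 742.6 and 931.8 TPM in WT. Of these genes, Fgb and Serpina1a had 0 counts in all libraries and Alb had 2 counts in KO and 2 in WT.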

How the data were processed

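RNA came from dissected, frozen brains and was made into stranded mRNA libraries read from both ends, per the labels' protocols. STAR (2.5.3a), RSEM (1.2.28), FastQC and Trimmomatic are listed in the submitters' processing notes, with the builds mm10 and GRCm38. Per the file headers, the authors deposited for each gene an expected count, which is an estimate that shares out ambiguous read pairs, and a TPM; the deposited TPM keeps no depth. The FPKM column was not used. The share of expected counts within 0.005 of a whole number was 98.91% to 98.97%.

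Expected counts were rounded and tested with edgeR 4.0.16 (R 4.3.3): filterByExpr with groups (minimum count 10), TMM scaling, robust quasi-likelihood F test, two-sided, Benjamini and Hochberg adjustment over all 15848 tested genes. Unless another tool is named, each adjusted p of a gene is from this test. CPM is given as mean ± SD of 3 libraries and log2 fold changes of KO over WT with SE. The test was checked on simulated counts in which all genes had the same spread between libraries. That check does not cover the unequal spread between these brains. Alternatives used DESeq2 1.42.0 and limma 3.58.1. Pairs of libraries of 1 group differed by a chi-square per degree of freedom of 43.5 to 167.6, so none repeats another.

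Coordinates came from the RefSeq gene table (GRCm38), exon overlaps from GENCODE, and promoters from RefSeq. The members, gene lists, tests and alternatives were chosen with earlier results of these data known. Named genes are the 5 members, E4f1, the tested receptors, up to 4 called genes of largest change per list, and the 3 genes nearest in profile to each tested member (mean of at least 1 CPM, no predicted genes). Other genes given with values, such as Pappa, Pcsk7, Fgf15, Atf4, Eda2r and Cdkn1a, were chosen after their values were seen.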

Additional observations from a re-analysis of the deposited data

How the results depend on the processing

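Against 159 genes called by edgeR, DESeq2 called 1445, limma on log2(TPM + 1) 245 and on log2(TPM + 0.1) 248, the replicate block 66, a term for animal number 87, and the fits without 1 library between 36 and 82. The 4 libraries with neighbouring animal numbers (KO 1, KO 2, WT 1 and WT 2) and the fit with the midbrain score each gave 0 called genes, with 1546 and 753 at an unadjusted p below 0.05. The 1 called member became 2 by DESeq2, 3 by limma on log2(TPM + 0.1) without a filter, and 0 with the replicate block, with the 4 libraries and with the midbrain score; without 1 library it was 0 to 1. Stc2 missed the threshold with the replicate block (log2 fold change 2.174, adjusted p = 0.0502), with the 4 libraries (2.107, adjusted p = 0.167) and with the midbrain score (2.085, adjusted p = 0.797), its value moving little, and ran from 2.048 to 2.317 without 1 library, and it stayed at 2.127 without KO 1 and 2.133 without WT 3 when the genes tested were kept (adjusted p = 0.0687 and 0.0556). Gdf15 passed by DESeq2 (3.586) and by limma on unfiltered TPM (2.287), where Adm2 passed too (2.135, adjusted p = 0.0263). The causes were not tested.

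Stc1 kept its direction and missed the threshold under all 27 alternatives run, which include 6 chosen after seeing the data, where a library was left out but the genes tested were kept. Adm2 has no value without KO 1 when the filter is repeated, and Gdf15 and Adm2 have none where TPM of at least 1 or CPM of at least 1 in 3 libraries was required. No fold is given for Fgf21 under any setting, since both groups lay at or under the floor of 3 counts per library. With the replicate block 1 of the 11 stress transcription factor genes was called. Libraries of the same number deviated together with r = 0.121, 0.173 and 0.016, and the other pairs between groups with r from -0.235 to 0.120. WT 1 and WT 2 were closest to the KO library of their own number, and WT 3 was closest to KO 1 (0.120). So few correlations cannot show whether the numbers pair the brains. Depth limits Gdf15, Adm2 and Fgf21, whose counts reached no more than 28 per library.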

Other observations

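Gdf1, a TGF-beta family gene like Gdf15, had expected counts of 92.0, 1809.3 and 72.3 in KO 1 to KO 3 and 150.1, 105.6 and 2.5 in WT 1 to WT 3, chosen after these values were seen. Cers1, with which it overlaps on the same strand, had 2249.0, 440.7 and 1443.7 in KO and 2694.9, 1842.4 and 2613.5 in WT. The summed counts of both genes were whole numbers, 2341, 2250 and 1516 in KO and 2845, 1948 and 2616 in WT, and the high Gdf1 value of KO 2 stood beside a low Cers1 value. The split between them is an estimate, so the fitted log2 fold change of Gdf1, 2.91 ± 1.65 (SE, adjusted p = 0.371), is uncertain.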
